A study of Mus musculus with 17 samples.

Results

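NgBR, encoded by Nus1, and Dhdds together form the cis-prenyltransferase, the enzyme that makes the long lipid from which dolichol is derived. Dolichol carries the sugar chain that is transferred to asparagine residues of new proteins in the endoplasmic reticulum (ER), and a liver that secretes apolipoproteins, clotting factors and complement depends on that step. The question asked here was whether loss of NgBR in the liver changes transcripts differently under a high-fat diet (HFD) and under a Western diet (WD, a fat-rich diet with added cholesterol). The data were 14 livers of a series of 17 RNA-seq samples; the 3 others were N-LKO tumors under WD and were left out. The groups were WT HFD (n = 4), N-LKO HFD (n = 4), WT WD (n = 3) and N-LKO WD (n = 3). N-LKO mice carry a loxP-flanked Nus1 deleted by a Cre driven by the albumin promoter, so deletion is aimed at hepatocytes while other liver cells keep the gene. All mice were male and on a C57BL6 background, and each diet lasted 16 weeks. The labels do not say whether WT mice carried Cre or loxP sites, nor whether the N-LKO liver was taken away from visible nodules.

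The 2 diets were counted in separate tables, so a diet and its table cannot be told apart, and no group of one diet was set against a group of the other. What was compared is the genotype effect. For each of 19032 genes listed in both tables, the log2 fold change of N-LKO against WT under HFD was subtracted from that under WD, and this difference is called the interaction. An interaction above 0 means that N-LKO livers stood higher relative to their own WT under WD than under HFD. Levels are CPM, counts scaled to a common library size, and each level is read only against the WT livers of the same diet. "Called" means a Benjamini-Hochberg adjusted p under 0.05 by edgeR over the 15850 genes that passed the filter on low counts. Libraries of the HFD table held 9096110 to 12215784 counts, and those of WD livers held from 15494731 to 20200618. The hepatocyte marker list (9 of 9 genes detected) summed to at least 36650 CPM in every liver, so the defining markers of liver tissue were present. WT WD replicate 2 stood apart from the other WT WD livers (chi-square per degree of freedom of 55.3 and 57.7 against them, which were closer to each other), and the values that changed most without it are given beside the results.

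Nus1 (chromosome 10, 52417547 to 52440183 on GRCm38, plus strand) was examined first. Under HFD it measured 96.3, 108, 92.5 and 101 CPM in WT and 42.5, 39.999, 42.1 and 33.1 CPM in N-LKO livers. Under WD it measured 81.3, 77.8 and 73.5 CPM in WT and 42.3, 39.3 and 34.7 CPM in N-LKO livers. Each N-LKO liver was below each WT liver of its diet, and the genotype effect passed in both diets, at −1.33 (adjusted p = 5.58e-06) under HFD and −0.998 (adjusted p = 0.00077) under WD. Its interaction was 0.34 (SE 0.14, adjusted p = 0.199) and was not called, and a difference in the loss between diets was not detectable here. Counts are per gene and do not separate the deleted exon from the rest. Dhdds, the catalytic partner, had an interaction of −0.08 (adjusted p = 0.806). Of the 29 tested genes of cis-prenyltransferase, dolichol and N-glycan assembly, 1 was called, against 1.62% of all genes. It was Dpm1, a subunit of the enzyme that makes dolichol phosphate mannose. Dpm1 measured 35.7, 37.6, 37.4 and 38.6 CPM in WT and 48.3, 42.2, 42.9 and 48.8 CPM in N-LKO livers on HFD, and 15.7, 15.1 and 13.6 CPM and 12.6, 9.76 and 12.4 CPM under WD. Its N-LKO livers were above the WT livers under HFD and below them under WD, and the interaction was −0.64 (SE 0.14, adjusted p = 0.0388), called in 4 of 14 fits without 1 liver. The median of the list, −0.06, changed sign to 0.03 with an offset for transcript length and GC content and to 0.02 without WT WD replicate 2.

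Across all genes, 256 of 15850 were called in the interaction (1.62%), 93 with an interaction above 0 (0.587%) and the others below 0 (1.03%). At an unadjusted p under 0.05 there were 3171. In the same fit the genotype effect called 747 genes under HFD (4.71%, with 2.25% higher and 2.46% lower in N-LKO) and 306 under WD (1.93%, with 0.606% higher and 1.32% lower). The balance of directions within a diet depended on the scaling. Under HFD it was 357 higher and 390 lower here, 412 and 330 with RLE size factors, and 427 and 323 with upper-quartile scaling. Under WD it was 96 higher and 210.0 lower here, 94 and 103 with upper-quartile scaling, and 490.0 and 514 with limma-voom. The WD count was 6 when that diet was fitted alone and 4 without N-LKO WD replicate 3. Most of the called genes had effects of opposite sign: 89 had N-LKO below WT under HFD and above WT under WD, and 158 had N-LKO above WT under HFD and below WT under WD. The signs were opposite in 96.5% of called genes and in 48.5% of all genes tested, and the call itself favours opposite signs. Of the 256, 133 were also called under HFD alone of the diets, 48 under WD alone, 2 under both and 73 under neither, so in those 73 only the difference passed. The median interaction of all genes was 0.01.

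**Figure D1:**
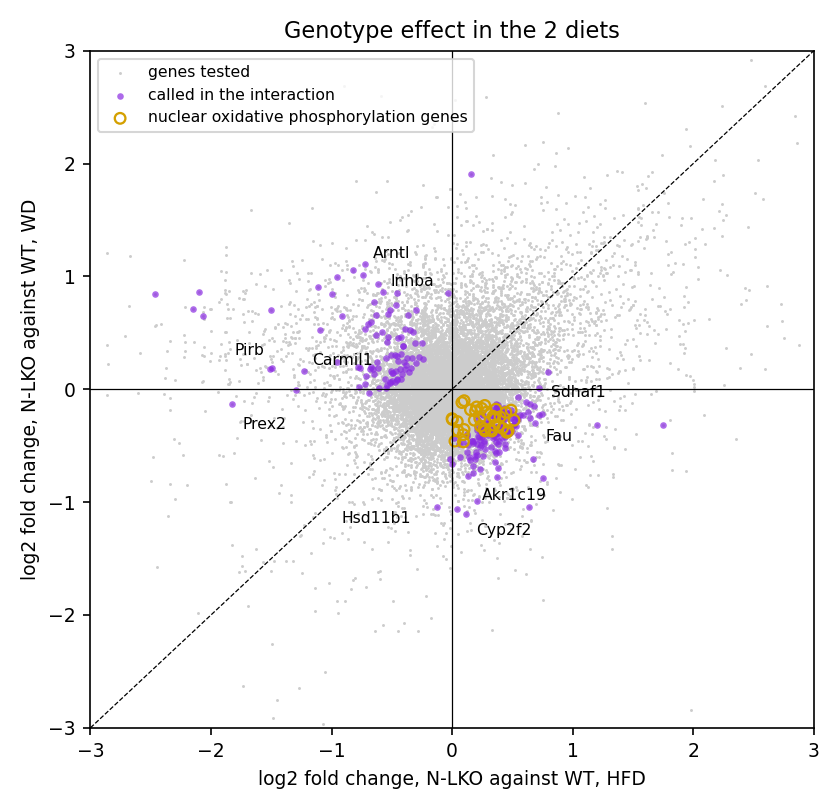
Genotype effect (log2 fold change, N-LKO against WT) under HFD on the x axis and under WD on the y axis for each gene tested; purple points are the 256 genes called in the interaction, yellow rings the 35 nuclear oxidative phosphorylation genes, and the dashed line marks equal effects (49 other genes and 1 called gene lie outside the axes). Of the called genes 89 lie in the upper left and 158 in the lower right, and the rings lie in or at the edge of the lower right.

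With an offset for transcript length and GC content in each library, all 256 genes kept their sign. Of these 234 had an unadjusted p under 0.05, against 2483 of all 15850 genes. They were picked in the same libraries, so this is no separate support. An adjusted p under 0.06 was reached by 55 genes, 39 of them among the 256. That cutoff is not the threshold used here and lies just above the second smallest adjusted p with the offset, 0.0559. These counts are therefore no support either. At the threshold of 0.05, 1 gene was called with the offset (Ankrd12, an ankyrin-repeat protein). The count also moved with single livers: it was 22 without N-LKO WD replicate 3, 61 without N-LKO WD replicate 2, 66 without WT WD replicate 2, 90 without N-LKO WD replicate 1, 91 without WT WD replicate 1, 59 and 85 without WT HFD replicates 2 and 1, 58.2% of the full count without WT HFD replicate 4, and 61, 158 and 159 when N-LKO HFD replicate 1, 2 or 4 was dropped. Of the 256 genes, 19 were called whichever of the 14 livers was dropped.

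The gene list with the most calls was nuclear-encoded oxidative phosphorylation, the subunits that the nucleus supplies to the respiratory chain and ATP synthase of the mitochondrial inner membrane. Of 35 measured members 14 were called with an interaction below 0, none above 0, and 21 did not pass, against 1.03% of all genes below 0. All 35 interactions were below 0, from −0.83 to −0.20, with a median of −0.54, and 31 had an unadjusted p under 0.05 (20.0% of all genes). The median genotype effect was 0.26 under HFD, where 11 members rose (2.25% of all genes) and none fell, and −0.27 under WD, where 4 fell (1.32% of all genes) and none rose. Averaged over the 35 members and set against the WT mean of the diet, N-LKO livers stood at 0.23 to 0.28 on the log2 scale under HFD (WT −0.09 to 0.06) and at −0.42 to −0.20 under WD (WT −0.06 to 0.08). The groups did not overlap in either diet.

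The called members came from all 4 electron-transfer complexes. In complex I, which takes electrons from NADH, Ndufs6 had an interaction of −0.83 (adjusted p = 0.0212), Ndufa2 of −0.79 (adjusted p = 0.0265) and Ndufb9 of −0.64 (adjusted p = 0.0265). In complex II, succinate dehydrogenase, the membrane anchors Sdhc (−0.70, adjusted p = 0.0212) and Sdhd (−0.58, adjusted p = 0.0294) were called. The catalytic subunit of that complex, Sdha, had −0.27 (adjusted p = 0.279) and the iron-sulfur subunit Sdhb −0.49 (adjusted p = 0.0985), and neither passed. Sdhaf1, which inserts iron-sulfur clusters into complex II and is not on the list, was among the 12 lowest called interactions, at −0.96 (adjusted p = 0.0294). In complex III the hinge protein Uqcrh (−0.67, adjusted p = 0.0214) and cytochrome c1, Cyc1 (−0.56, adjusted p = 0.0447), were called, while the core proteins had −0.48 (adjusted p = 0.0531) for Uqcrc1 and −0.20 (adjusted p = 0.374) for Uqcrc2. In complex IV, cytochrome c oxidase, 7 subunits were called: Cox8a, Cox4i1, Cox5b, Cox6c, Cox6b1, Cox5a and Cox7a2, from −0.83 for Cox8a to −0.54 for Cox7a2. Called members passed in 1 to 14 of 14 fits without 1 liver. None of the 5 ATP synthase members (Atp5a1, Atp5b, Atp5e, Atp5h and Atp5j) was called, with interactions from −0.67 for Atp5e to −0.26 for Atp5b.

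Cox4i1 (chromosome 8, 120668222 to 120674207), the regulatory subunit of cytochrome c oxidase, shows the pattern liver by liver. Under HFD it measured 239, 250.1, 265 and 284 CPM in WT and 348, 376, 332 and 331 CPM in N-LKO livers, an effect of 0.42 (adjusted p = 0.0115). Under WD it measured 226, 247 and 228 CPM in WT and 179, 180.2 and 193 CPM in N-LKO livers, an effect of −0.35 (adjusted p = 0.0622). All 4 N-LKO livers were above WT under HFD and all 3 below WT under WD, and the interaction of −0.76 (SE 0.12, adjusted p = 0.0202) was called in 14 of 14 fits without 1 liver. Cox6b1, another subunit of complex IV, was also called in 14 of these fits. Uqcrh measured 110.0, 110.1, 125 and 125 CPM in WT and 164.4, 171, 168 and 157 CPM in N-LKO livers on HFD, and 74.0, 86.9 and 71.9 CPM and 68.0, 66.99 and 69.8 CPM under WD. Here the larger effect lay under HFD, at 0.49 (adjusted p = 0.00631), against −0.18 (adjusted p = 0.259) under WD. Cyc1 lay the other way, at 0.09 under HFD with overlapping groups and −0.47 (adjusted p = 0.0333) under WD. Its 3 N-LKO WD livers (54.4, 53.3 and 51.7 CPM) were all below the WT livers (73.0, 81.2 and 65.9 CPM).

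**Figure D2:**
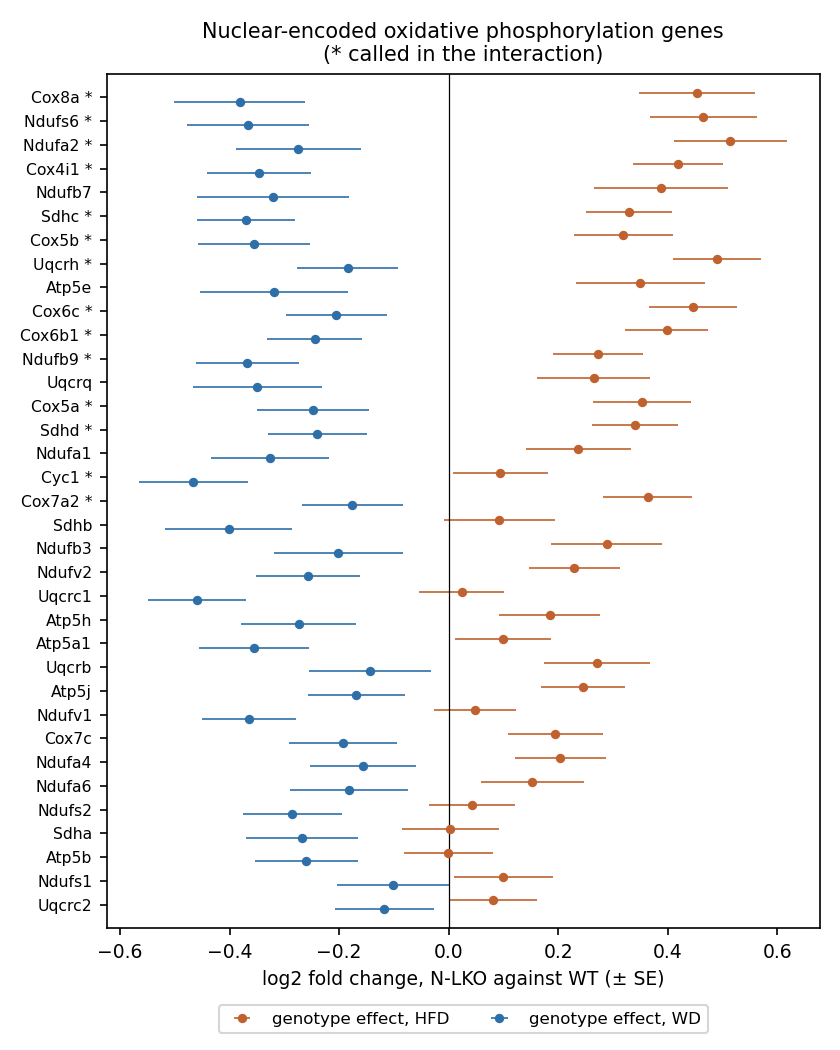
Genotype effect (log2 fold change, N-LKO against WT, with bars of ± 1 SE) of each of the 35 nuclear-encoded oxidative phosphorylation genes under HFD (orange) and WD (blue), ordered by the interaction; an asterisk marks the 14 called in the interaction. All 35 WD points lie below 0 and 34 of 35 HFD points above 0.

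The 13 respiratory chain genes that mitochondrial DNA encodes had a smaller difference. This list was added after the values of the nuclear list had been seen. Their median interaction was 0.05, with medians of −0.01 under HFD and 0.10 under WD, 10 of 13 above 0 and none called. With the offset the median changed sign to −0.07, with 9 of 13 below 0, and without WT WD replicate 2 to −0.07. The lowest was −0.12 (adjusted p = 0.774) for mt-Co2, which encodes a catalytic subunit of cytochrome c oxidase, and the highest 1.02 (adjusted p = 0.142) for mt-Atp8. The difference between the nuclear and the mitochondrial list was not tested. Nuclear members are short, with a median transcript of 1232 bases against 3056 for all genes tested. With the offset the median interaction of the nuclear list was −0.40 (−0.07 for all genes) and all 35 were still below 0. Of these 28 had an unadjusted p under 0.05 (2483 of all 15850 genes with the offset), but none was called. The called members were 3 without N-LKO WD replicate 3, 5 without N-LKO WD replicate 2 or without WT HFD replicate 2, 6 without WT WD replicate 2, 7 without N-LKO HFD replicate 1 or without WT HFD replicate 1, and 9 without N-LKO WD replicate 1.

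Promoters were read for the list because its members moved together. NRF1, nuclear respiratory factor 1, is a known activator of respiratory chain genes, and the core CATGCGC of its binding motif was searched on both strands in RefSeq windows from 250 bases before to 50 bases after each start (GRCm38.p6). Of the 35 genes 23 had a window. Genes can have several, so a count of genes is not directly comparable with a share of windows. The core was in windows of 4, Cox5b, Ndufa6, Sdhb and Uqcrc1, and 3.91% of all 32851 windows held it. Cox5b was the called one of these and is shown, read 5′ to 3′, with the match in capitals.
Cox5b (chr1:36691237-36691536, plus strand): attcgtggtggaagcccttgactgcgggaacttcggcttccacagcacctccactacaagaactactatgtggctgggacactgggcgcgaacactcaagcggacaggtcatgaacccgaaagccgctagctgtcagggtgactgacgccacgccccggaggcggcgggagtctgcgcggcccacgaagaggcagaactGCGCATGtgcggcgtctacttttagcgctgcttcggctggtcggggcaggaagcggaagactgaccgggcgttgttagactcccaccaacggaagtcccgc
Cox5b encodes a subunit of cytochrome c oxidase. It measured 56.1, 57.7, 67.7 and 68.8 CPM in WT and 79.8, 76.3, 84.0 and 72.2 CPM in N-LKO livers on HFD, and 43.7, 49.4 and 44.3 CPM and 36.4, 32.8 and 38.2 CPM under WD, with an interaction of −0.67 (SE 0.14, adjusted p = 0.0286). The groups did not overlap in either diet. A match in letters is a description and does not show binding.

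Genes of protein synthesis leaned the same way with fewer calls, and the lean was smaller with the length and GC offset. Of 32 cytosolic ribosomal protein genes 2 were called below 0, Rps6 (−0.72, adjusted p = 0.0387) and Rps15 (−0.65, adjusted p = 0.0286), both of the small subunit, against 1.03% of all genes, and 30 did not pass. Of 14 fits without 1 liver, 1 called Rps6 and 5 called Rps15. The list median was −0.32, with 0.24 under HFD, where 6 members rose (2.25% of all genes), and −0.04 under WD, where none was called. With the length and GC offset the median was −0.12, against −0.07 for all genes, and 27 of 32 members were below 0. Members are short, with a median transcript of 1070 bases against 3056 for all genes tested. Of the 32, 13 had 951 bases or less and 9 had 952 to 1559. Of all genes of those lengths, 3.41% and 2.77% were called below 0, so the 1.03% is not a like comparison. Fau, which encodes ribosomal protein S30 fused to a ubiquitin-like peptide and is not on the list, was among the 12 lowest. It measured 27.7, 28.98, 30.3 and 31.97 CPM in WT and 47.3, 55.9, 48.3 and 40.2 CPM in N-LKO livers on HFD, and 34.4, 40.8 and 37.0 CPM and 29.9, 27.7 and 33.8 CPM under WD. N-LKO livers were above WT under HFD and below WT under WD without overlap, and the interaction of −0.98 (SE 0.16, adjusted p = 0.0202) was called in 14 of 14 fits without 1 liver. Its counts held fractional values in all 14 livers, so reads shared with near-identical copies make its level uncertain.

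At the other end were genes whose N-LKO livers fell under HFD and did not fall, or stood higher, under WD. In taking the 12 highest called interactions with a mean of at least 5 CPM, 6 genes with automatic names were passed over. Prex2 (chromosome 1, 10993465 to 11303681), an exchange factor for the GTPase Rac, had the highest interaction of the 12. Under HFD it measured 11.1, 12.2, 8.35 and 14.1 CPM in WT and 2.62, 2.98, 3.501 and 3.88 CPM in N-LKO livers, an effect of −1.82 (adjusted p = 0.000372). Under WD it measured 22.7, 32.01 and 23.4 CPM and 23.3, 24.9 and 23.0 CPM, an effect of −0.13 (adjusted p = 0.663). The HFD groups were far apart and the WD groups overlapped, and the interaction of 1.69 (SE 0.25, adjusted p = 0.0159) was called in 14 of 14 fits without 1 liver. Pirb, an inhibitory receptor of myeloid cells and B cells, had the same form: 3.997, 4.08, 5.24 and 2.78 CPM in WT and 0.937, 1.30, 1.57 and 1.89 CPM in N-LKO livers on HFD, and 9.48, 6.58 and 8.44 CPM and 9.02, 8.18 and 10.8 CPM under WD. Its groups were apart under HFD and overlapped under WD, with an interaction of 1.68 (SE 0.33, adjusted p = 0.0265), and 13 of its 14 values were fractional, so reads shared with related genes enter it. Carmil1, a regulator of actin filament capping, and Gprin3, a membrane protein that binds G proteins, also lay mostly on the HFD side. Carmil1 had effects of −1.23 (adjusted p = 0.00266) under HFD and 0.16 under WD, and Gprin3 of −0.78 (adjusted p = 0.00147) and 0.20. Both interactions, 1.39 (adjusted p = 0.0212) for Carmil1 and 0.98 (adjusted p = 0.0159) for Gprin3, were called in all 14 fits without 1 liver.

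In others the WD side carried the difference or both sides shared it. Fat1 (an atypical cadherin) measured 119, 97.8 and 101.8 CPM in WT and 150.4, 184 and 184.7 CPM in N-LKO livers on WD, and 44.2, 43.7, 41.8 and 34.4 CPM and 32.4, 29.7, 32.7 and 38.8 CPM under HFD. Its WD groups did not overlap and its HFD groups did, with effects of 0.70 (adjusted p = 0.0223) and −0.30 (adjusted p = 0.137) and an interaction of 1.00 (SE 0.17, adjusted p = 0.0212). Gimap4, a GTPase of the immunity-associated family found in lymphocytes, measured 8.70, 9.12, 9.97 and 11.2 CPM in WT and 6.28, 6.79, 6.16 and 7.66 CPM in N-LKO livers on HFD, and 8.46, 6.52 and 9.44 CPM and 11.9, 15.4 and 11.5 CPM under WD. N-LKO livers were below WT in one diet and above it in the other, and its interaction was 1.20 (adjusted p = 0.0236). The remaining genes among the 12 highest were Ccdc141 (1.30, adjusted p = 0.0323), a coiled-coil protein, the zinc finger gene Zfp758 (1.11, adjusted p = 0.0286), the ABC transporter Abcc10 (1.03, adjusted p = 0.0399), the GTPase-activating Ralgapa1 (0.99, adjusted p = 0.0397), and Cyyr1 (0.95, adjusted p = 0.0212), a small cysteine-rich membrane protein. Of 14 fits without 1 liver, calls held in 10 for Pirb, 13 for Fat1, 11 for Gimap4, 4 for Ccdc141, 9 for Zfp758, 2 for Abcc10, 4 for Ralgapa1 and 14 for Cyyr1. The effects of the last 5 genes ran from −0.63 for Ccdc141 to −0.37 for Abcc10 under HFD, and from 0.42 for Cyyr1 to 0.66 for Ccdc141 under WD. The 93 genes called above 0 had long transcripts, with a median of 5993 bases. Chosen from them after their values were seen, these are regulators with large transcripts: Kmt2a, a histone methyltransferase (0.81, adjusted p = 0.0245), Tet2, a DNA demethylase (0.83, adjusted p = 0.0452), and Rictor, the defining subunit of mTORC2 (0.78, adjusted p = 0.0212).

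**Figure D3:**
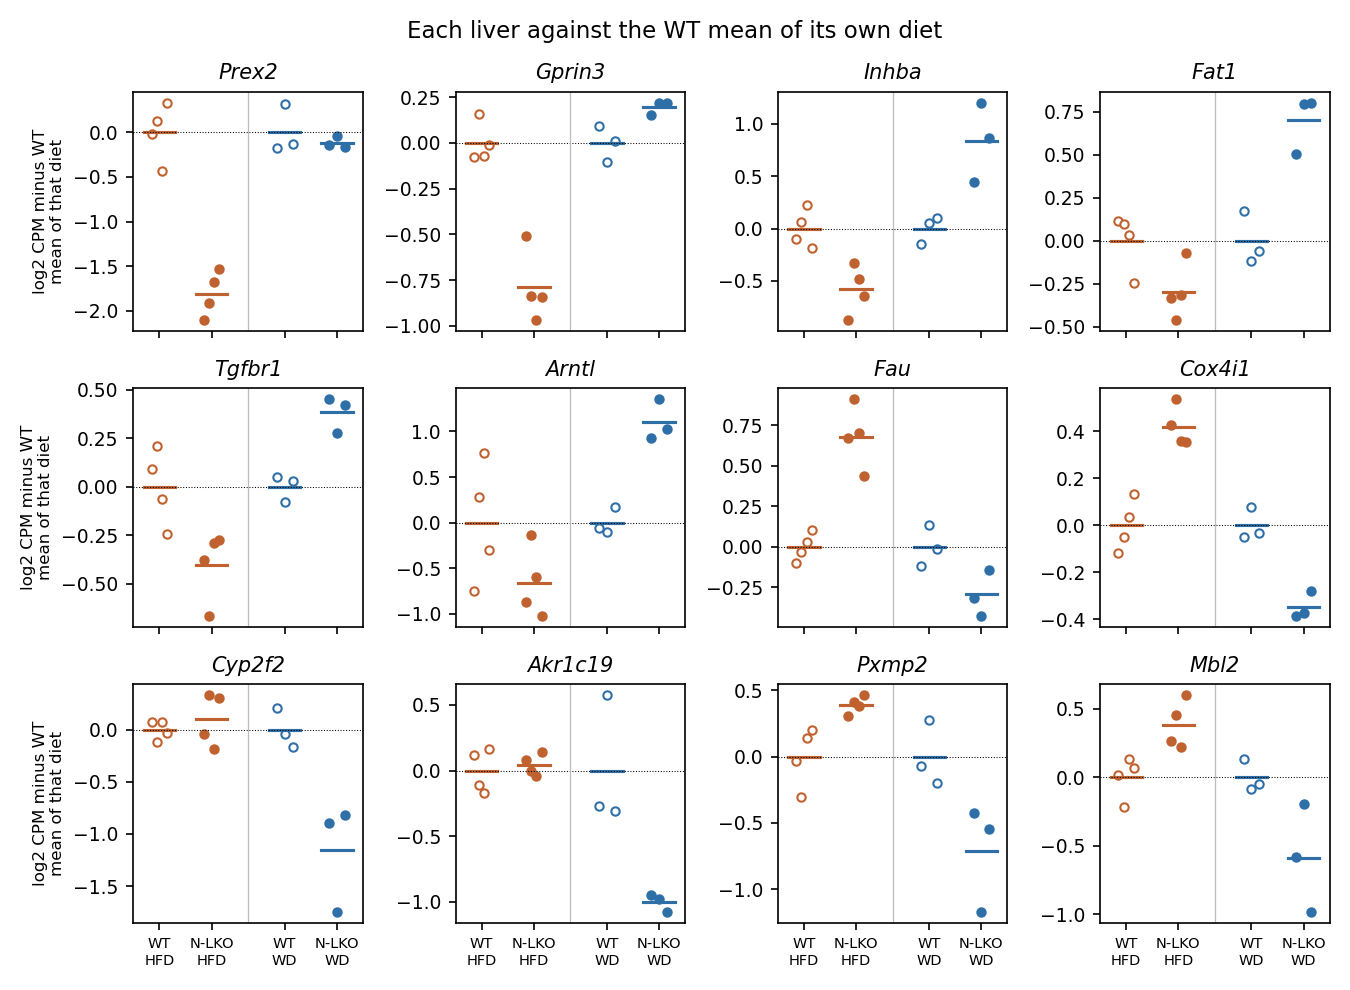
Log2 CPM of each liver minus the mean of the WT livers of the same diet, for 12 genes; open points are WT, filled points N-LKO, orange HFD (4 and 4 livers), blue WD (3 and 3 livers), and short lines are group means. N-LKO livers lie below WT under HFD and above it under WD for Inhba and Tgfbr1, the reverse for Fau and Cox4i1, and apart from WT mainly under HFD for Prex2 and under WD for Cyp2f2 and Akr1c19.

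Among the 12 lowest called interactions, some genes fell under WD and had HFD groups that overlapped. Cyp2f2, a cytochrome P450 of periportal hepatocytes (chromosome 7, 27119909 to 27133660), measured 683, 576 and 526 CPM in WT and 318, 176.1 and 335 CPM in N-LKO livers on WD, and 643, 561, 639.6 and 597 CPM and 592, 766, 536 and 751 CPM under HFD. The groups overlapped under HFD and not under WD, with effects of 0.12 and −1.11 (adjusted p = 0.0255) and an interaction of −1.22 (SE 0.27, adjusted p = 0.0355). Cyp2u1, a fatty acid hydroxylase, had 0.21 under HFD and −0.99 (adjusted p = 0.033) under WD, and an interaction of −1.20 (adjusted p = 0.0424). Akr1c19, an aldo-keto reductase, measured 38.9, 69.8 and 37.9 CPM in WT and 24.3, 23.8 and 22.2 CPM in N-LKO livers on WD, and 76.1, 65.04, 62.3 and 78.9 CPM and 74.4, 70.05, 68.3 and 77.5 CPM under HFD. The HFD groups overlapped while every N-LKO WD liver was below every WT WD liver, and the interaction was −1.10 (SE 0.24, adjusted p = 0.0355). WT WD replicate 2 was the highest of its group, and without it the interaction of Akr1c19 was −0.76 (adjusted p = 0.0471). Hsd11b1, which regenerates active glucocorticoid and was singled out after its values were seen, had a similar shape, with −0.12 under HFD, −1.04 (adjusted p = 0.00113) under WD and an interaction of −0.92 (SE 0.16, adjusted p = 0.0212), called in 13 of 14 fits without 1 liver.

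Other genes among the 12 lowest stood higher in N-LKO livers under HFD and lower under WD. Pxmp2, a channel of the peroxisomal membrane, measured 84.8, 70.1, 95.4 and 99.6 CPM in WT and 107, 115, 113 and 119 CPM in N-LKO livers on HFD, and 48.1, 61.2 and 44.1 CPM and 37.7, 22.5 and 34.7 CPM under WD, with an interaction of −1.07 (SE 0.23, adjusted p = 0.0323). Its groups did not overlap in either diet. Apol9b, an apolipoprotein L family gene, had 0.37 under HFD, −0.78 (adjusted p = 0.033) under WD and an interaction of −1.14 (adjusted p = 0.0237); its values were fractional in all 14 livers, since it shares sequence with its neighbour Apol9a. Arl4d, an ARF-like GTPase, had the lowest called interaction of this rule, −1.29 (adjusted p = 0.0404), and its HFD groups overlapped. Mcrip2 (−0.99, adjusted p = 0.0294), which binds a transcriptional co-repressor, Nsmce3 (−0.96, adjusted p = 0.0236), a subunit of the SMC5/6 complex, and the calcium-binding S100a13 (−0.94, adjusted p = 0.0269) completed the 12 with Mbl2, Fau and Sdhaf1. Of 14 fits without 1 liver, calls held in 3 for Cyp2f2, 2 for Cyp2u1, 6 for Akr1c19, 5 for Pxmp2, 10 for Apol9b, 3 for Arl4d, 8 for Mcrip2, 10 for Nsmce3, 7 for S100a13 and 5 for Sdhaf1. Pdk2, a kinase that switches off pyruvate dehydrogenase, was outside this rule and singled out because its interaction of −0.84 (SE 0.13, adjusted p = 0.0159) was called in 14 of 14 fits without 1 liver. Pdk2 measured 87.7, 76.2, 75.9 and 79.5 CPM in WT and 103.7, 90.0, 86.3 and 101 CPM in N-LKO livers on HFD, and 85.3, 84.3 and 84.2 CPM and 61.0, 52.0 and 56.0 CPM under WD. Its WD groups were apart, and its HFD effect of 0.25 (adjusted p = 0.0882) did not pass.

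Among lipoprotein genes, 2 of 15 members of the VLDL and apolipoprotein list were called, both below 0, against 1.03% of all genes. Apoc3, which slows the clearance of triglyceride-rich particles, measured 679, 588, 787 and 803 CPM in WT and 1013, 1019, 812 and 839 CPM in N-LKO livers on HFD, and 476, 475 and 371 CPM and 334, 258 and 301 CPM under WD. N-LKO livers were above WT under HFD and below WT under WD, and the interaction was −0.93 (SE 0.20, adjusted p = 0.0332), called in 5 of 14 fits without 1 liver. Apoa2, a protein of high-density lipoprotein, had an interaction of −0.73 (adjusted p = 0.0455), called in 1 of 14 fits without 1 liver. The list median was −0.55, −0.38 when offset for length and GC content, and −0.30 with WT WD replicate 2 left out. Apob, the structural protein of VLDL with a long transcript, lay on the other side at 0.50 (adjusted p = 0.153), and Mttp, which loads lipid onto it, at 0.13 (adjusted p = 0.715); neither passed. None of the 16 genes of de novo lipogenesis (median −0.28), 20 of triacylglycerol synthesis and lipid droplets (−0.32), 21 of fatty acid oxidation (−0.29), 17 of lipid uptake (−0.17), 14 of LXR targets and cholesterol efflux (−0.14), 25 of cholesterol synthesis (−0.09) or 18 of bile acid synthesis and transport (−0.15) was called. Among the members with the smallest p in their lists were Pltp, which transfers phospholipid between lipoproteins (−1.22, adjusted p = 0.0535), the fatty acid binding protein Fabp2 (−0.56, adjusted p = 0.0586), Ebp, a sterol isomerase (−0.73, adjusted p = 0.0638), the lipid droplet protein Cideb (−0.49, adjusted p = 0.0802), and Hsd17b13, a lipid droplet enzyme (−0.81, adjusted p = 0.0977). Hsd17b13 was called under HFD alone, at 0.67 (adjusted p = 0.0334) against −0.15 (adjusted p = 0.688) under WD.

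Hepatocytes near the portal vein carry out gluconeogenesis and the breakdown of amino acids, and their markers had a median interaction of −1.01 over 12 genes, 11 of them below 0, with none called. Their median was 0.12 under HFD and −0.75 under WD, and with the length and GC offset the interaction stayed at −0.95. Gls2, the liver glutaminase, measured 162.3, 99.4, 151.7 and 177 CPM in WT and 184, 247, 206 and 192 CPM in N-LKO livers on HFD, and 123, 153 and 81.5 CPM and 78.9, 32.7 and 80.7 CPM under WD. Its groups did not overlap in either diet, yet the spread was wide and the interaction of −1.38 (SE 0.39, adjusted p = 0.0735) did not pass. N-LKO WD replicate 2 was the lowest liver for this list (mean −1.08 on the log2 scale against its WT livers, and −0.46 and −0.35 in the others), and without WT WD replicate 2 the median interaction was −0.63. The 22 genes of the urea cycle and amino acid breakdown had a median of −0.41, 21 below 0 and none called, with the smallest p for Agxt, which detoxifies glyoxylate (−1.22, adjusted p = 0.0625), and Fah, the last enzyme of tyrosine breakdown (−0.60, adjusted p = 0.0788). Markers of pericentral hepatocytes, around the central vein, had a median of 0.11 over 13 genes, and none was called. The 30 drug-metabolising cytochrome P450 genes had a median of −0.38, 27 below 0 and 2 called (Cyp2f2 and Cyp2u1, against 1.03% of all genes). Under WD 7 fell (1.32% of all genes), and under HFD 1 fell and 1 rose, near the shares of 2.46% and 2.25% over all genes. Hepatocyte markers moved with these lists: the 9 markers had a median of 0.00 under HFD and −0.44 under WD, 8 of 9 below 0 under WD. Their summed level was 50990 to 59660 CPM in WT and 36650 to 47810 CPM in N-LKO livers of the WD groups, without overlap, and 85410 to 98220 CPM and 79150 to 101400 CPM, overlapping, in those of HFD. The part of this in the WD falls was not tested.

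Of 28 complement and coagulation genes 1 was called, against 1.62% of all genes. Mbl2, the mannose-binding lectin that starts the lectin pathway of complement, measured 305, 260.0, 330.3 and 315 CPM in WT and 363, 413, 351 and 458 CPM in N-LKO livers on HFD, and 143, 123 and 126.3 CPM and 87.2, 113.9 and 65.9 CPM under WD. N-LKO livers were above WT in the first case and below it in the second, and the interaction was −0.94 (SE 0.22, adjusted p = 0.0422), with a highest adjusted p of 0.0916 without N-LKO WD replicate 3. It was called in 3 of 14 such fits. The list median was −0.22, and −0.09 without WT WD replicate 2. The 24 acute phase genes had a median of −0.35 and none called, and the median changed sign to 0.14 without WT WD replicate 2. That liver held 138.05 CPM of Mt1, a metallothionein that binds zinc, where the other WT WD livers held 21.5 and 38.4. The interaction of Mt1 was −2.62 (adjusted p = 0.0813). Male-biased and growth hormone responsive genes changed sign in the same way, from −0.26 to 0.51, and none of 24 was called.

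The circadian clock runs on a loop in which Arntl (BMAL1) and Clock switch on the Per and Cry genes, whose proteins then block the pair, and Arntl RNA normally peaks when that of Dbp is low. Of 18 clock genes 1 was called, against 1.62% of all genes, and it was Arntl itself. It measured 1.53, 3.11, 4.36 and 2.08 CPM in WT and 1.40, 2.33, 1.69 and 1.26 CPM in N-LKO livers on HFD, and 2.54, 2.47 and 2.98 CPM and 5.06, 6.79 and 5.41 CPM under WD. Under WD every N-LKO liver was above every WT liver, while the HFD groups overlapped, and the interaction was 1.83 (SE 0.41, adjusted p = 0.0388), called in 4 of 14 fits without 1 liver. Its partners Clock (0.67, adjusted p = 0.132) and Npas2 (1.07, adjusted p = 0.543) were the other members above 0. The other 15 were below 0, among them Dbp (−1.25, adjusted p = 0.103), Per1 (−0.92, adjusted p = 0.257), Ciart (−0.93, adjusted p = 0.595) and Tef (−0.59, adjusted p = 0.207), none of which passed. The list median was −0.47, of which −0.02 under HFD and −0.52 under WD. Dbp measured 62.0, 78.5 and 54.7 CPM in WT and 46.3, 20.9 and 30.8 CPM in N-LKO livers on WD, and 91.5, 80.9, 36.0 and 97.5 CPM and 94.8, 78.0, 99.96 and 91.3 CPM under HFD. WT HFD replicate 3 had the highest Arntl and the lowest Dbp of its group. Its mean over the clock list was −0.47 on the log2 scale, against 0.10 to 0.23 in the other WT HFD livers. Without it the interaction of Arntl was 1.54 (adjusted p = 0.053) and was not called. The time of day at which each liver was taken is not given in the sources used here, and its part in the result was not tested.

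Clock genes are known to be controlled through the ROR element, a site of the ROR and REV-ERB receptors, and the E-box, the site of BMAL1 and CLOCK. RefSeq promoter windows (GRCm38.p6, 250 bases before to 50 after a start) were found for 15 of the 18 genes and searched on both strands. The core of the ROR element, TAGGTCA, was in windows of Arntl and Nfil3 (2.61% of all windows). The E-box, with the letters CACGTG, was in those of Bhlhe41, Ciart, Cry1, Per1 and Tef (7.15%). These shares are per window and genes can have several, so they are not directly comparable with counts of genes. Windows of 3 genes that lay on opposite sides of 0 are shown with the matches in capitals, the ROR core for Arntl and the E-box for the others.
Arntl (chr7:113207261-113207560, plus strand): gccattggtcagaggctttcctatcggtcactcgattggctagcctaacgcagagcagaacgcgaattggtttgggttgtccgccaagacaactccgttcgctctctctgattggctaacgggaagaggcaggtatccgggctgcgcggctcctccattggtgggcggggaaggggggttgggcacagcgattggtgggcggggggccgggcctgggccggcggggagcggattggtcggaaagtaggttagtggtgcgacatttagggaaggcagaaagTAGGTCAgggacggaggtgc
Per1 (chr11:69098699-69098998, plus strand): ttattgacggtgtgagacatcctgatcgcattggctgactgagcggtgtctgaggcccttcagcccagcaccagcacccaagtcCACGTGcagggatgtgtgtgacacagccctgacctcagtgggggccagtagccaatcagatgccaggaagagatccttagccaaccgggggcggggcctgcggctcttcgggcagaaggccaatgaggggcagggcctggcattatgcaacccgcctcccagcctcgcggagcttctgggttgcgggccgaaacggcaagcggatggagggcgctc
Ciart (chr3:95882179-95882478, minus strand): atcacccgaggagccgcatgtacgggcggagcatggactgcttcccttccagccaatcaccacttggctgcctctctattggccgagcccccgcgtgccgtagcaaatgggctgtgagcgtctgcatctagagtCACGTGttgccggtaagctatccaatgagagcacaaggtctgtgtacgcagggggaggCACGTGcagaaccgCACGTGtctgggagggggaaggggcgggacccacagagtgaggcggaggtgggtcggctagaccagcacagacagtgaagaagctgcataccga
Arntl has a second window, starting upstream, without the ROR core, and Per1 a second one, downstream, without an E-box. The Ciart window held 3 matches.

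Activin, TGF-beta and BMP signals meet on SMAD proteins and act on liver growth and fibrosis. Of 35 members 2 were called, both above 0, against 0.587% of all genes. Inhba, the subunit of activin A, measured 11.6, 13.1, 14.6 and 11.003 CPM in WT and 6.84, 9.95, 8.93 and 8.02 CPM in N-LKO livers on HFD, and 4.12, 4.71 and 4.87 CPM and 6.19, 10.5 and 8.29 CPM under WD. N-LKO livers were below WT under HFD and above it under WD, without overlap, and the interaction of 1.44 (SE 0.26, adjusted p = 0.0212) was called in 13 of 14 fits without 1 liver. Tgfbr1, the type I TGF-beta receptor, measured 30.7, 33.3, 27.5 and 24.3 CPM in WT and 22.1, 18.1, 23.5 and 23.8 CPM in N-LKO livers on HFD, and 50.2, 45.8 and 49.5 CPM and 66.3, 58.6 and 64.8 CPM under WD, with an interaction of 0.79 (SE 0.16, adjusted p = 0.0286). Its groups did not overlap in either diet, and it was called in 7 of 14 fits without 1 liver. The activin receptor Acvr2a had 0.51 (adjusted p = 0.0646) and the antagonist follistatin, Fst, −1.19 (adjusted p = 0.283), and neither passed. Among ligands, Inhbb had 0.80 (adjusted p = 0.372) and Tgfb1 0.48 (adjusted p = 0.311). The list median was 0.08, and −0.13 with the length and GC offset.

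Lists for other cells of the liver gave no call in the interaction, although several moved within a diet. In whole liver RNA fewer cells of a type and less RNA per cell cannot be told apart. The 11 Kupffer cell markers, of the resident macrophages, had a median of −0.91 under HFD, where 6 fell (2.46% of all genes), and −0.44 under WD, where 1 fell (Cd163). Their median interaction was 0.39, with the smallest p for Timd4, a receptor of resident Kupffer cells (1.34, adjusted p = 0.135), so the fall was not shown to differ between diets. Their summed level was 537 to 635 CPM in WT and 335 to 514 CPM in N-LKO livers on HFD, and 800.1 to 909 CPM and 661 to 670 CPM under WD. The 23 endothelial genes had a median interaction of 0.28, 19 of them above 0 (50.5% of all genes). Under HFD 4 fell (2.46% of all genes) and under WD none. Stab2, a scavenger receptor of the sinusoids, had an interaction of 0.66 (adjusted p = 0.0945). The summed endothelial level was 352 to 406 CPM in WT and 258 to 381 CPM in N-LKO livers on HFD, and 598 to 687 CPM and 618 to 670 CPM under WD, overlapping in both diets. Recruited macrophage (median 0.18), stellate cell and fibroblast (−0.01), dendritic cell (0.06), monocyte and neutrophil (0.09), and B and plasma cell (0.09) markers had none called, and neither had the 9 hepatocyte markers (−0.36) nor Wt1, the 1 mesothelial marker tested (−0.49, adjusted p = 0.754). T and NK cell markers were too low to read, at 1.97 to 5.77 CPM in all for the 6 of 18 that passed the filter, Cd3d, Cd3e and Cd8b1 not among them (median 0.58, none called). The 6 erythroid genes had the lowest median of all lists, −1.82, with medians of 0.94 under HFD and −0.92 under WD and none called. Their summed level was 140 to 314 CPM in WT and 273 to 677 CPM in N-LKO livers on HFD, and 432 to 818 CPM and 249 to 384 CPM under WD. The part of residual blood in the results above was not tested.

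Some lists rose in part in both diets and had no member called in the interaction. Cholangiocyte markers, of the bile ducts, had medians of 1.53 under HFD and 1.29 under WD, with 3 and 4 of 8 rising (2.25% and 0.606% of all genes), and an interaction of −0.09, or −0.37 without WT WD replicate 2. The 19 liver cancer markers had medians of 0.87 and 1.00, with 7 and 5 rising, and an interaction of −0.09, or −0.32 without WT WD replicate 2. The 25 ER chaperones and unfolded protein response genes had −0.36 and −0.31 with none called in either diet, and an interaction of 0.04. Dnajb9, an ER chaperone, had the smallest p of these, at 0.38 (adjusted p = 0.431). No member was called among collagens (median 0.04), cell cycle genes (0.21), p53 targets (0.04), interferon-stimulated genes (0.07), MHC class II genes (0.04), chemokines (0.17), glucose and glycogen genes (0.07), hepatocyte transcription factors (−0.10), AP-1 and immediate early genes (−0.40), or glutathione and NRF2 genes (−0.32). In the last list 24 of 26 lay below 0, with Gpx1, the main cytosolic glutathione peroxidase, at −0.58 (adjusted p = 0.0678) and the superoxide dismutase Sod1 at −0.51 (adjusted p = 0.0813). Several of these medians rested on WT WD replicate 2. Without it 13 lists changed sign, the male-biased, acute phase, dolichol and mitochondrially encoded lists given above and 9 others: −0.23 for recruited macrophage, −0.26 for B and plasma cell, −0.13 for dendritic cell, −0.22 for MHC class II, −0.09 for chemokine, −0.21 for collagen, −0.13 for cell cycle, −0.17 for p53 target and −0.03 for glucose and glycogen genes. Others kept their sign and moved by over 1.5 times, to 0.17 for ER chaperone, 0.27 for pericentral, −0.32 for lipid uptake, −0.07 for LXR, 0.001 for interferon-stimulated and −0.31 for stellate cell genes.

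**Figure D4:**
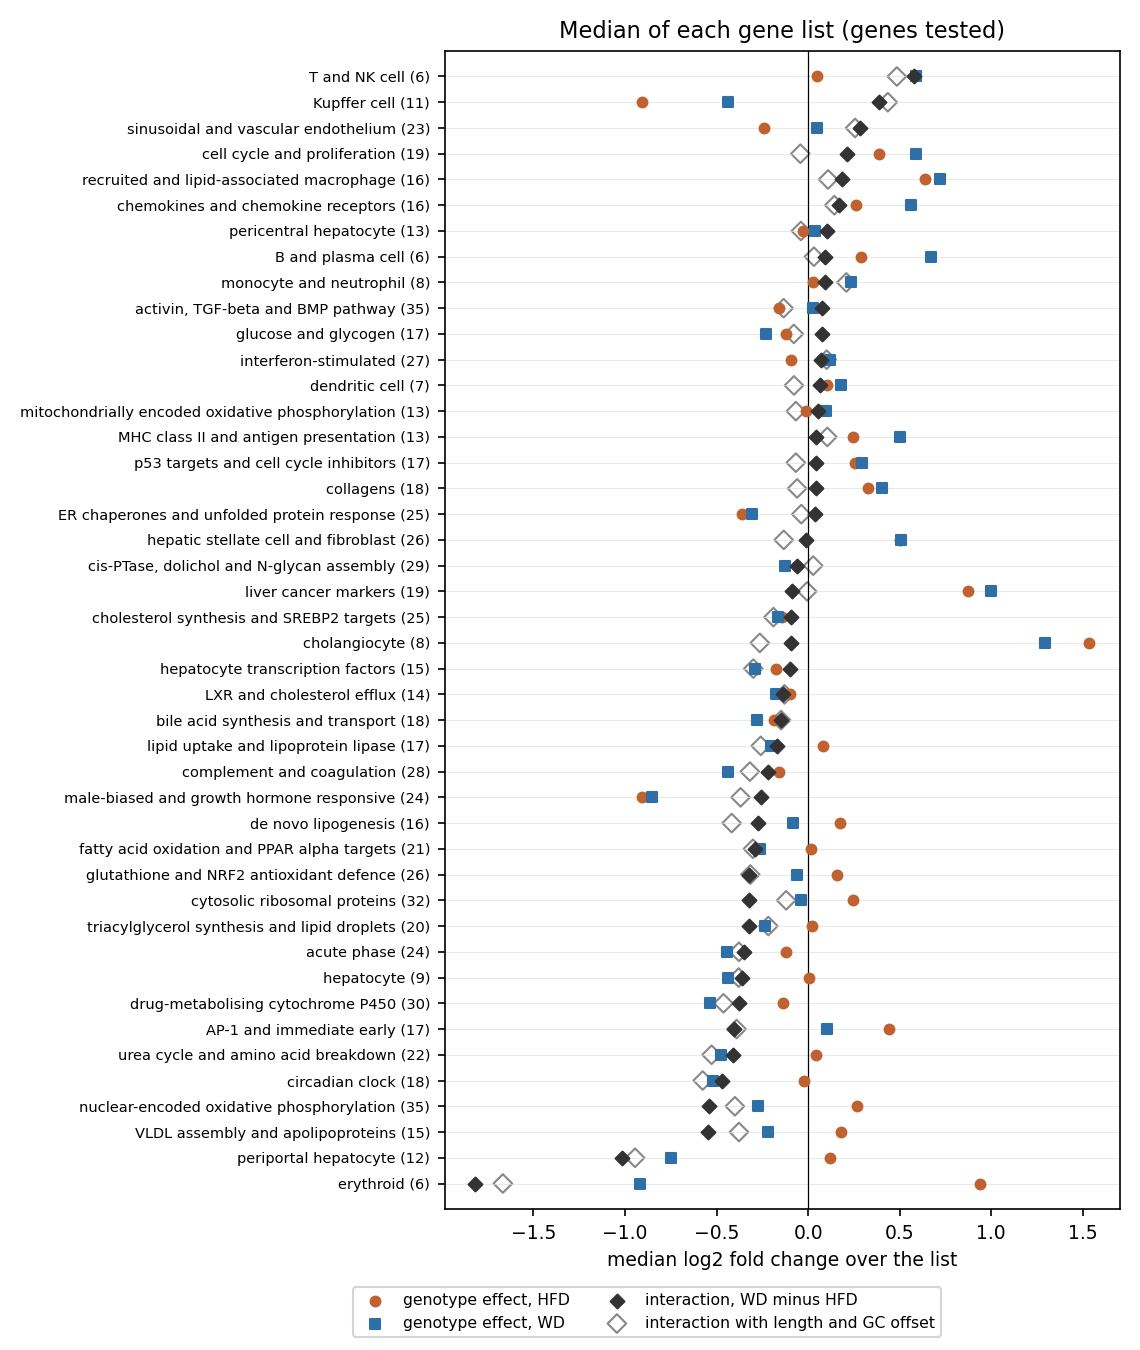
Median log2 fold change of each gene list with at least 5 genes tested (number in brackets): genotype effect under HFD (orange), under WD (blue), interaction (black) and interaction with a length and GC offset (grey outline), ordered by the interaction. Erythroid (−1.82), periportal (−1.01), VLDL (−0.55) and nuclear oxidative phosphorylation (−0.54) lists lie lowest, and cholangiocyte and liver cancer lists lie far right in both diets with an interaction of −0.09.

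Transcript length moved with the genotype effect, in opposite directions in the 2 diets. Across 15534 genes with an annotated length, Spearman's rho of the log2 fold change with length was −0.27 under HFD, 0.18 under WD and 0.34 for the interaction, and with GC content 0.11, −0.29 and −0.28. Genes are not independent replicates and share the same libraries, so these are descriptions. In the tenth of genes with the shortest transcripts (951 bases or less) the median interaction was −0.31 and 3.53% were called, while in the tenth with the longest (6460 bases or more) it was 0.24 and 2.71% were called. Called genes below 0 had a median transcript of 1251 bases. Relative to the mean of the diet, rho with length was 0.06 to 0.23 in WT and −0.23 to −0.12 in N-LKO livers under HFD, and −0.15 to −0.04 in WT and 0.08 to 0.19 in N-LKO livers under WD. The groups did not overlap in either diet, and the sign of the difference turned with the diet. The labels' protocol names a small RNA kit although the tables count whole genes, so the library type behind these values is uncertain. RNA integrity values were not used here, and the part of RNA quality or library preparation in the result was not tested. With the offset 10 list medians changed sign, those of the dolichol, mitochondrially encoded and activin lists given above and 7 others: −0.04 for pericentral, −0.04 for ER chaperone, −0.06 for collagen, −0.04 for cell cycle, −0.07 for p53 target, −0.08 for dendritic cell and −0.08 for glucose and glycogen genes. The median of all genes moved with the offset too, from 0.005 to −0.07. These 7 medians and the mitochondrially encoded one lie near that value, so their change of sign does not set them apart from all genes.

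**Figure D5:**
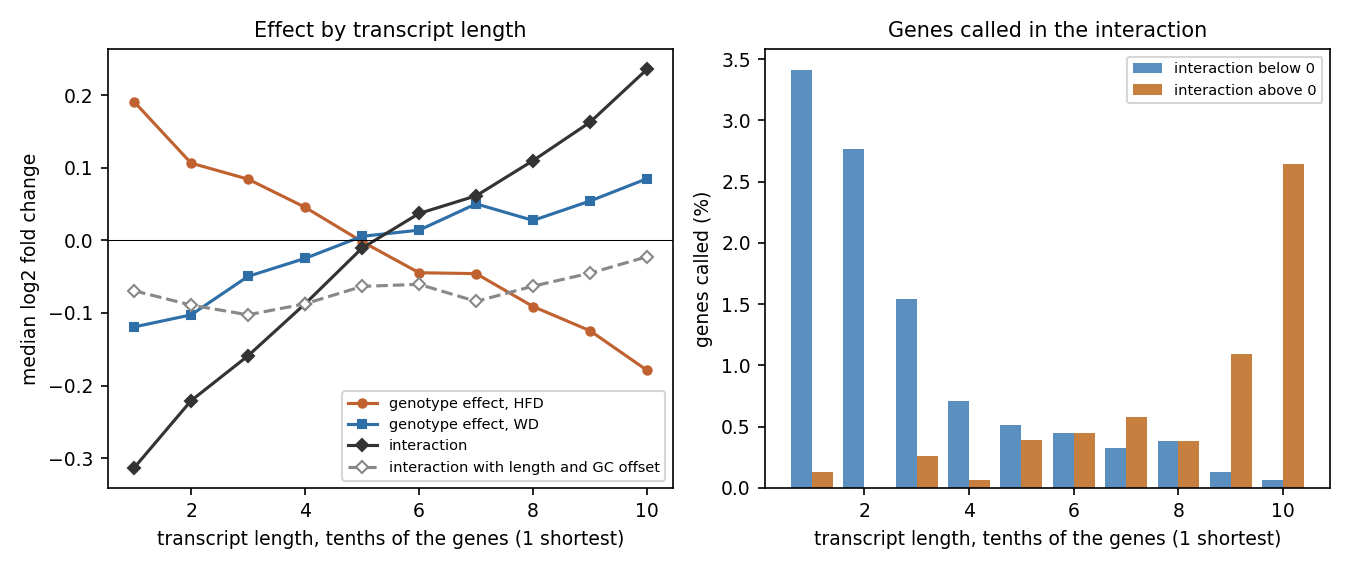
Genes in 10 equal groups by transcript length (x axis, 1 is the shortest). Left, median log2 fold change of the genotype effect under HFD (orange) and WD (blue), of the interaction (black) and of the interaction with a length and GC offset (grey, dashed). The interaction rises from −0.31 to 0.24 and is −0.07 to −0.02 at the ends with the offset. Right, percentage of genes called in the interaction below 0 (blue) and above 0 (orange), 3.41% and 0.129% in the shortest group and 0.0645% and 2.64% in the longest.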

How the data were processed

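RNA-seq was made from 14 livers in 4 groups (WT and N-LKO, HFD and WD). The authors deposited estimated counts per gene in 1 table per diet. Partek's E/M quantification splits ambiguous reads, so gene families and overlapping genes share them. The submitters' processing notes name STAR, Partek and mm9, while the paper's methods name TopHat2, and the versions are not given in the sources used here. Of the symbols 97.7% were found in GENCODE M21, and the tables' starts were those of GRCm38. Of the deposited estimated counts 66.0% were whole (within 1e-06), and all were rounded. No column was left without a sample, and the 3 tumor columns were not used.

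Genes in both tables were fitted with edgeR 4.0.16 (R 4.3.3) by the quasi-likelihood F test (two-sided), after TMM over the 14 libraries and filterByExpr on the 4 groups. Library size was the sum over genes in both tables. The 3 contrasts came from 1 fit, and adjusted p-values are Benjamini-Hochberg over 15850 genes. The SE was approximated from the fold change and its F value. The p-values measure the spread between libraries labelled as biological replicates. The fit was tested on data simulated from the spread that it had itself estimated. Those data held no length or GC trend and no outlying liver, so the test does not bear on these. A higher depth under WD lessens counting error there, but the spread between livers was larger. With each diet fitted alone, the coefficient of variation between livers was 0.176 under WD and 0.149 under HFD. The main fit used 1 estimate of the spread for both diets, so its WD p-values do not carry the larger WD spread. Genes were named as the 12 highest and 12 lowest called interactions with a mean of at least 5 CPM, passing over automatic names, plus called list members, the 2 list members with the smallest p where fewer were called, Nus1, Dhdds and the cell type markers. The members and the 44 lists were chosen with earlier results of these data known. The mitochondrially encoded list and the offsets for length alone or GC alone were added after the values were seen. The values of 1 list member are not reported here. Alternatives were other scalings, filters, DESeq2 1.42.0, limma-voom 3.58.1, a replicate block, a per-library length and GC offset, each diet alone, and leaving out each liver.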

Additional observations from a re-analysis of the deposited data

Results flagged for a closer look

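The genotype effect differed between HFD and WD, by the edgeR test of the interaction itself, for 45 genes that the naming rule selected. Ankrd12, Hsd11b1, Pdk2, Kmt2a, Tet2 and Rictor, chosen after their values were seen, were also called and are not counted here. On the log2 scale, WD minus HFD, the genes above 0 were 1.69 for Prex2, 1.68 for Pirb, 1.44 for Inhba, 1.39 for Carmil1, 1.30 for Ccdc141, 1.20 for Gimap4, 1.11 for Zfp758, 1.03 for Abcc10, 1.00 for Fat1, 0.99 for Ralgapa1, 0.98 for Gprin3, 0.95 for Cyyr1, 1.83 for Arntl and 0.79 for Tgfbr1. The genes of nuclear oxidative phosphorylation were all below 0, at −0.79 for Ndufa2, −0.64 for Ndufb9, −0.83 for Ndufs6, −0.70 for Sdhc, −0.58 for Sdhd, −0.67 for Uqcrh, −0.56 for Cyc1, −0.76 for Cox4i1, −0.60 for Cox5a, −0.67 for Cox5b, −0.64 for Cox6b1, −0.65 for Cox6c, −0.54 for Cox7a2 and −0.83 for Cox8a. The other genes below 0 were −1.29 for Arl4d, −1.22 for Cyp2f2, −1.20 for Cyp2u1, −1.14 for Apol9b, −1.10 for Akr1c19, −1.07 for Pxmp2, −0.99 for Mcrip2, −0.98 for Fau, −0.96 for Sdhaf1, −0.96 for Nsmce3, −0.94 for S100a13, −0.94 for Mbl2, −0.64 for Dpm1, −0.73 for Apoa2, −0.93 for Apoc3, −0.72 for Rps6 and −0.65 for Rps15. None of the 45 was called with the length and GC offset or with the replicate block, and all 45 were called by DESeq2's Wald test.

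A liver far from the 3 others of its HFD group was sought for 123 named genes in 2 groups each (Dixon's gap test). The test flagged 10 of 246 groups, no more than the share of about 1 in 20 that chance gives. They were Ccdc141 in WT HFD replicate 4 (14.01 CPM), Zfp758 in WT HFD replicate 3 (9.97 CPM), Cox5a in WT HFD replicate 2 (93.8 CPM), Ahr in WT HFD replicate 2 (62.2 CPM), Jund in WT HFD replicate 3 (37.5 CPM), Sesn1 in WT HFD replicate 4 (10.7 CPM), Krt8 in WT HFD replicate 1 (135 CPM), Ecm1 in N-LKO HFD replicate 4 (57.6 CPM), Sox9 in WT HFD replicate 1 (4.23 CPM) and Hba-a2 in N-LKO HFD replicate 2 (169 CPM). The WD groups of 3 were not tested in this way.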

How the results depend on the processing

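The number of genes called in the interaction (256) was 923 with DESeq2's Wald test, 133 with a GC offset alone, 3 with a length offset alone and 1 with both. It ran from 22 (without N-LKO WD replicate 3) to 330 (without WT WD replicate 3). The count under HFD (747) was 1268 with DESeq2, 264 with the length and GC offset and 271 with the length offset alone, and ran from 248 (without WT HFD replicate 2) to 1038 (without WT WD replicate 2). The count under WD (306, of which 96 higher) was 6 with each diet fitted alone, 873 with DESeq2, 1004 with limma-voom and 197 with upper-quartile scaling (94 higher and 103 lower), and ran from 4 (without N-LKO WD replicate 3) to 651 (without WT WD replicate 3). The oxidative phosphorylation members called below 0 (14) were 25 with DESeq2 and 0 with the length and GC offset or the length offset alone by edgeR (28 at an unadjusted p under 0.05 with both), and ran from 3 (without N-LKO WD replicate 3) to 14. The interaction of Dhdds, −0.08 and not called, ran from −0.16 (without WT WD replicate 3) to 0.012 (without N-LKO WD replicate 3), where its sign turned. The cause of these changes was not tested.

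Same-numbered WT and N-LKO livers did not deviate together (r from −0.0509 to 0.0782 over 7 pairs), so the numbers were not read as pairs. With a replicate block edgeR called 0 genes in the interaction (3120 at an unadjusted p under 0.05), 60 under WD and 0 oxidative phosphorylation members. With the replicate block and the length and GC offset it called 0 (2304 at an unadjusted p under 0.05), 180 under HFD, 86 under WD and 0 members.

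Of the 45 genes that the naming rule selected and the interaction called, 45 were called with DESeq2 and with RLE scaling, 42 without a filter on low counts, 25 with the GC offset alone, and 8 (without N-LKO WD replicate 3) to 44 (without WT HFD replicate 3) with 1 liver left out. The call for Nus1 was the same under each alternative run. With 3 or 4 livers a group, smaller differences, and those of genes with few counts, were not detectable.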
